A study of Mus musculus with 2 samples.

Results

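The 10 genes studied here belong to the NRF2 antioxidant programme and to glutathione metabolism, measured in whole mouse hearts: Nfe2l2, Gclc, Gclm, Nqo1, Hmox1, Srxn1, Txnrd1, Gsr, Gsta3 and Gstm1. They were chosen by gene symbol in the platform annotation, and these 10 genes stand among 16390 named genes on the array. Each of the 10 had 1 probe, so the rule of taking the brightest probe of a gene made no choice among them. All 10 were detected in all 4 hearts, and all 10 lay at or above the median signal of the 11698 genes so detected.

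NRF2, the protein of Nfe2l2, is a transcription factor that KEAP1 holds for degradation in unstressed cells. Electrophiles and oxidants disable KEAP1, and NRF2 then pairs with small MAF proteins on antioxidant response elements and raises genes that make glutathione, reduce thioredoxin, detoxify quinones and conjugate reactive compounds. In heart muscle, where mitochondria turn over much oxygen, these enzymes supply the reducing equivalents that keep protein thiols and lipids intact.

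Because members of such a programme are known for a shared DNA element, the promoter windows of the RefSeq table (GRCm38.p6, 250 bases before to 50 bases after each annotated start) were searched for the core element TGACNNNGC on both strands. Of the members, 7 of 10 had a window in the table, and 5 of these 7 held the core, against 3781 of all 27025 genes with a window. Counted by window, 4071 of 32851 (12.4%) held it. Of other genes of the pathway, 20 of 109 held it. The 5 matches are printed 5′ to 3′ on the gene's strand with the core, or its reverse complement, in capitals. They were found in 5 of the 10 genes and are not a feature shown for the whole list.
Nfe2l2: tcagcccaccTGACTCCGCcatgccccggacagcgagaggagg
Gclm: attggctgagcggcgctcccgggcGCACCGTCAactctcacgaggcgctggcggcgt
Srxn1: cgccacggcgggcagtgggcaGCTAGGTCA
Txnrd1: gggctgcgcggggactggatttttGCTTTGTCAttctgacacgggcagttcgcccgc
Gsta3: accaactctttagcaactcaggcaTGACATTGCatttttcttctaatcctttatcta

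The Nfe2l2 stretch lies at chr2:75704871-75704913 (minus strand), with the core 240 to 232 bases before the start. The Gclm stretch lies at chr3:122245399-122245455 (plus strand), with the core on the opposite strand 134 to 126 bases before the start. The Txnrd1 stretch lies at chr10:82859090-82859146 (plus strand), with the core on the opposite strand. This core lies 92 to 84 bases before 1 of the 3 starts listed for that gene, and the other windows held no match. The Gsta3 stretch lies at chr1:21240440-21240496 (plus strand), 121 to 113 bases before the start, on the gene's own strand. The Srxn1 match at chr2:152105531-152105560 (plus strand) lay after the start, at transcribed bases 29 to 37, with the core on the opposite strand. Windows of Nqo1 and Gstm1 held no match to these letters, which says nothing of elements farther away, and Gclc, Hmox1 and Gsr were not searched here.

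Hearts came from male C57BL/6J mice aged 6 months that had been fed freely (ad libitum, AL) or kept on 40% caloric restriction (CR) for 3 months. Control mice were compared with mice whose Sirt1, an NAD-dependent deacetylase, was knocked out in cardiomyocytes, which asks how the cardiac response to restriction depends on Sirt1 in these cells. Neither the Cre driver nor the genetic make-up of the controls is described in the labels. Of 2 two-colour arrays 1 carried both control hearts and 1 both knockout hearts, with the AL heart in Cy5 and the CR heart in Cy3 on both. Each condition was therefore measured in 1 heart, no test was possible, and every difference below describes 4 hearts and not the spread between mice. Diet cannot be told apart from dye within an array, and genotype cannot be told apart from array, but a dye bias that is the same on both arrays cancels in the difference of the responses. In whole tissue, fewer cells of a type and less RNA per cell cannot be told apart.

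The hearts carried strong cardiomyocyte signals: 13 of 13 measured markers were detected in all 4 hearts, and their summed signal lay between 206851 and 237061. Sirt1 itself had log2 signals of 7.11 (control AL), 7.53 (control CR), 7.07 (knockout AL) and 7.51 (knockout CR). Where its probe lies relative to the deleted part is not known here, so it does not check the genotype. Within an array, repeated spots of 2 positive controls had SDs of the log2 ratio between 0.048 and 0.088 (24 spots each). That is the noise of spots and not that between mice. Their mean log2 ratio of Cy3 to Cy5, blank-subtracted but neither centred nor loess-normalized, was not alike on the arrays. It was -0.27 (control array) and -0.05 (knockout array) for 1 of them, and 0.14 and -0.65 for the other. The SD within an array thus does not measure shifts between arrays.

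**Figure D1:**
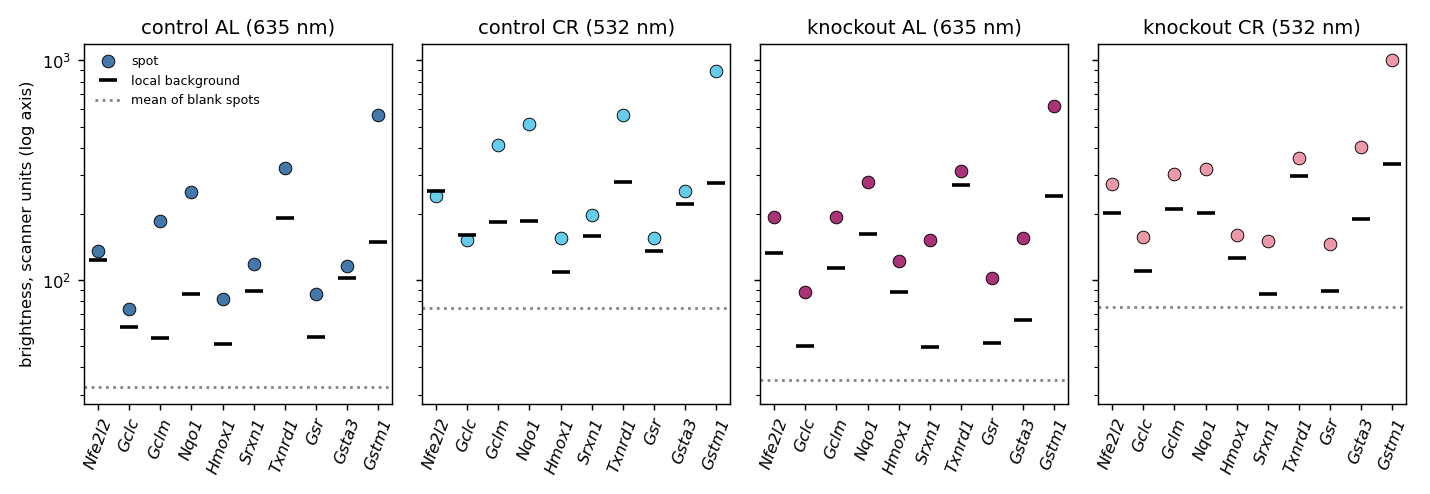
Brightness of the 10 probes in each heart in scanner units (log axis), with the spot as a circle, the brightness around it as a bar and the mean of the blank spots as a dotted line. All spots lie above the blank mean, while the bar reaches or passes the circle for Nfe2l2 and Gclc in the control CR heart.

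The spots of these genes were well above the blank spots, whose means were 32.5 and 34.9 in the AL channels and 74.9 and 75.6 in the CR channels. The brightness around the spots was often nearly as high. Runs of 4 values are given for the control pair and then the knockout pair, AL before CR. For Nfe2l2 the spot read 135, 241, 193 and 274 scanner units in that order, and its surroundings read 123, 255, 132 and 203. For Gclc the spot read 73.6, 152, 87.8 and 156 and its surroundings 61.4, 160, 49.8 and 109.6. In the control CR heart the surroundings were thus brighter than the spot for both genes. The values given next do not subtract this local background. What subtracting it does is given with each gene or comparison where a sign turned or a value moved by over 1.5 times.

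**Figure D2:**
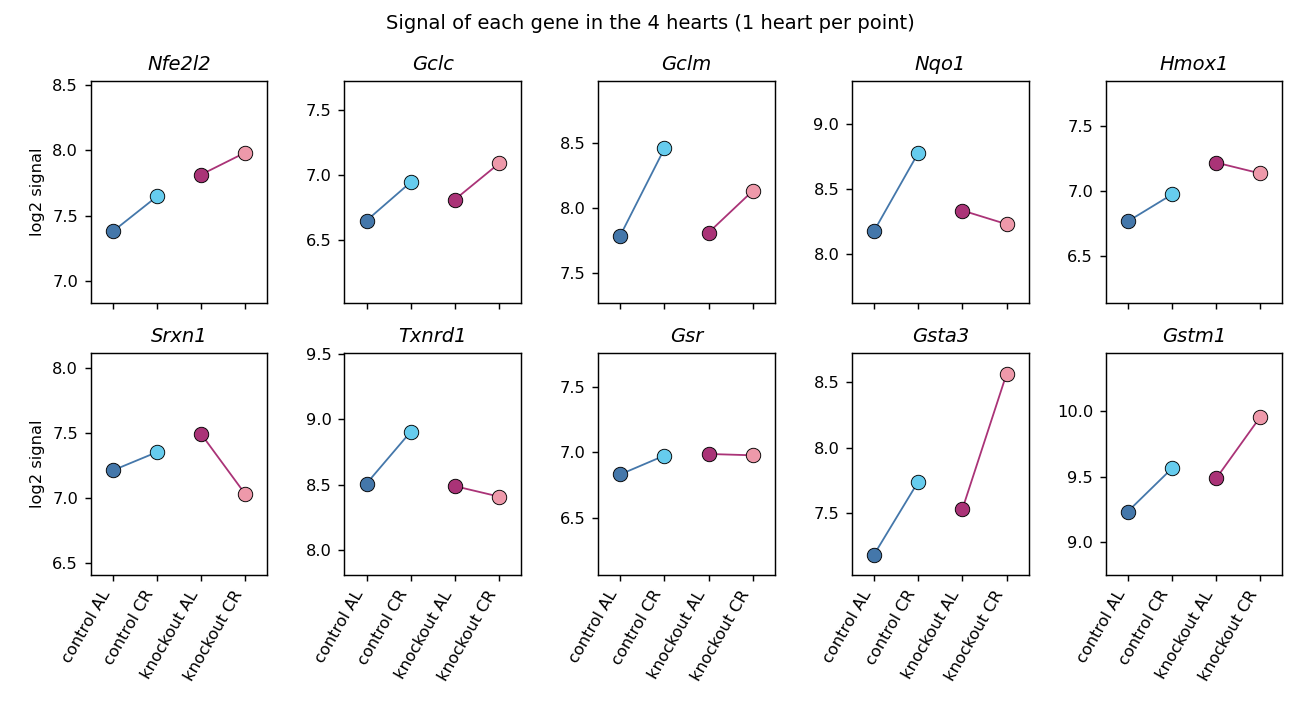
Normalized log2 signal of each gene in the control AL, control CR, knockout AL and knockout CR heart, with 1 heart per point and a line joining the hearts of 1 array. Every panel covers the same height in log2 units around its own middle. All 10 lines rise for the control hearts, while those of Nqo1, Hmox1, Srxn1, Txnrd1 and Gsr run level or down for the knockout hearts.

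In the control hearts, all 10 genes had a higher signal with CR than with AL, where 51.4% of the 12658 genes compared did. Their median log2 CR over AL was 0.31, against 0.00 for all genes. Gclm and Nqo1 passed 1.5-fold upward, 2 of 10, where 0.814% of all genes did, and 0 of 10 passed it downward, where 0.340% did. The genes were proposed with earlier results of these arrays known, Gclm, Nqo1 and Gsta3 among them, so these counts describe the list and are not independent evidence for it. With the local background subtracted 7 of 10 were higher, with Nfe2l2 at -0.15, Gclc at -0.13 and Gsr at -0.15. The genes past 1.5-fold were then Nqo1 (0.65) and Txnrd1 (0.71), and Gclm was at 0.47. Cell type markers also differed between these hearts: with CR 9 of 13 cardiomyocyte markers (median 0.18) and 6 of 10 endothelial markers (median 0.06) were higher, and 7 of 10 fibroblast markers (median -0.24) and 9 of 11 macrophage markers (median -0.19) were lower. Their part in the members' values was not tested.

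In the knockout hearts the list divided. In these hearts 5 of 10 were higher with CR (Nfe2l2, Gclc, Gclm, Gsta3 and Gstm1) and the other 5 were lower, where 50.1% of 12142 genes were higher. The median was 0.08 beside 0.00 for all genes. Gsta3 alone, 1 of 10, passed 1.5-fold upward and 0 of 10 passed it downward, where 0.758% of all genes did so in each direction. The values of Hmox1 (-0.08), Txnrd1 (-0.08) and Gsr (-0.01) were no larger than 1 SD of repeated control spots on that array (up to 0.088). Nqo1 (-0.10) lay little beyond 1 SD, and Srxn1 (-0.46) lay farther out. That SD comes from blank-subtracted ratios without loess, so it is only a rough guide to these values. With the local background subtracted 8 of 10 were higher, and Nqo1 and Srxn1 were again the lower ones. Of the markers, 7 of 13 for cardiomyocytes (median 0.02) and 3 of 10 for endothelium (median -0.09) were higher with CR, and 9 of 10 were lower for fibroblasts (median -0.40) and 9 of 10 for macrophages (median -0.36). Their part was not tested here either.

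**Figure D3:**
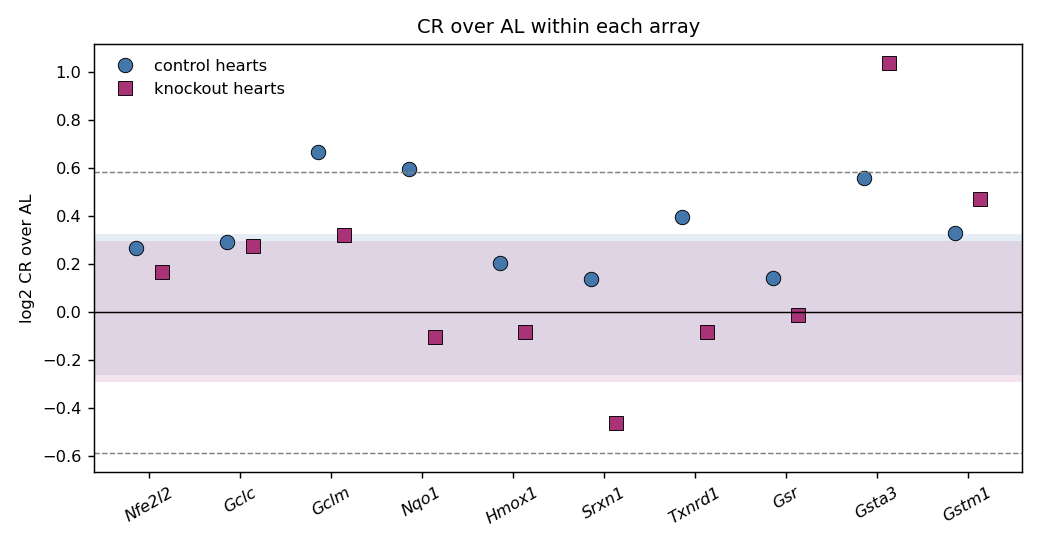
Log2 CR over AL of each gene in control hearts (circles) and knockout hearts (squares). Dashed lines mark 1.5-fold and shading the 5th to 95th percentile of all genes compared (-0.26 to 0.33 in control and -0.29 to 0.30 in knockout hearts). The control points are all above 0, Gclm and Nqo1 pass the upper dashed line, and Gsta3 is the only gene whose knockout point does.

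Nfe2l2, the regulator itself, had log2 signals of 7.38 (control AL), 7.65 (control CR), 7.81 (knockout AL) and 7.98 (knockout CR). The control AL heart was lowest, and both knockout hearts lay above both control hearts. The CR over AL value was 0.27 in control and 0.17 in knockout hearts, and the knockout hearts were higher by 0.44 (AL) and 0.34 (CR). With the local background subtracted the genotype values grew to 0.78 and 1.07, and the control CR over AL value was the -0.15 given above.

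Gclc and Gclm encode the catalytic and the modifier subunit of glutamate-cysteine ligase, the rate-limiting enzyme of glutathione synthesis. Gclc read 6.65, 6.95, 6.81 and 7.09 on the log2 scale in that order, a CR over AL of 0.29 and 0.28. Its response was thus nearly the same size on both arrays, with a difference of -0.02 that turned to 0.29 with the local background subtracted. The authors' deposited table gave larger responses for Gclc, 0.55 and 0.47. Subtracting the local background put Gclc at -0.13 and 0.16, and its genotype values of 0.16 (AL) and 0.14 (CR) were 0.45 and 0.74. Gclm read 7.79, 8.46, 7.81 and 8.13. Both AL hearts were nearly level, and the control CR heart was highest. CR over AL was 0.67 in control hearts, a 1.59-fold difference that ranked 58 of 12658 genes, and 0.32 in knockout hearts. The knockout value was 0.10 with the local background subtracted. In the authors' deposited table Gclm stood at 0.78 and 0.38.

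Nqo1 encodes the quinone reductase NAD(P)H quinone dehydrogenase 1, a widely used readout of NRF2. Its spot minus the blank mean was 220.4 scanner units in the control AL heart, 441 in the control CR heart, 246 in the knockout AL heart and 243 in the knockout CR heart. The control CR heart therefore stood apart and the other hearts lay close together. On the normalized log2 scale these were 8.18, 8.78, 8.34 and 8.23, giving CR over AL values of 0.60 in control and -0.10 in knockout hearts. The difference of the responses, -0.70, ranked 28 from the bottom among 11698 genes and lay between -0.81 and -0.68 under 6 other ways of processing, local background subtraction included. The authors' deposited table gave 0.64 and -0.16.

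Hmox1 encodes heme oxygenase 1, which degrades heme to biliverdin, iron and carbon monoxide. Its log2 signals were 6.77 (control AL), 6.97 (control CR), 7.22 (knockout AL) and 7.14 (knockout CR). The control AL heart was lowest and the knockout AL heart highest, with a difference of 0.45 between these hearts. That value was 0.08 with the local background subtracted, 0.75 with a normexp offset of 0 and 0.81 with blank subtraction, the last 2 past 1.5-fold. Under CR the genotypes differed by 0.16, which turned to -0.10 with the local background subtracted. Restriction gave 0.21 in control and -0.08 in knockout hearts, the latter 0.05 with the local background subtracted. The authors' deposited table gave 0.35 and -0.18. Tissue macrophages also express Hmox1, and their markers were not level: 10 of 11 were higher in the knockout than in the control AL heart (median 0.29, 3 of them past 1.5-fold), and with CR 2 of 11 were higher in control and 1 of 10 in knockout hearts (medians -0.19 and -0.36). The summed signal of the 11 markers was 2240.5 in the control AL, 1726 in the control CR, 3168 in the knockout AL and 1991 in the knockout CR heart, 10 were detected in all 4 hearts, and their part in the Hmox1 values was not tested.

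Srxn1 encodes sulfiredoxin, which repairs overoxidized peroxiredoxins, and Txnrd1 the cytosolic thioredoxin reductase. Srxn1 read 7.21, 7.35, 7.49 and 7.03 on the log2 scale in that order. The knockout AL heart was highest and the knockout CR heart lowest, so that CR over AL was 0.14 in control and -0.46 in knockout hearts. The knockout value was -0.78 in the authors' deposited table and -0.39 with the local background subtracted. Under AL the genotypes differed by 0.28, and by 0.91 with the local background subtracted, while under CR the -0.32 turned to 0.36.

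Txnrd1 read 8.51, 8.91, 8.49 and 8.41 in the same order. As with Nqo1, the control CR heart stood apart and the other hearts lay within a narrow span. CR over AL was 0.40 in control and -0.08 in knockout hearts, and 0.71 and 0.25 with the local background subtracted. After that subtraction the other hearts no longer lay close together. Knockout over control was then -0.79 under AL and -1.26 under CR. The difference of the responses was -0.48, and lay between -0.57 and -0.47 under the other settings.

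Gsr encodes glutathione reductase, which returns oxidized glutathione to its reduced form with NADPH. It varied least of the 10, reading 6.83, 6.98, 6.99 and 6.98 in that order. The control AL heart was lowest, and the other hearts were nearly level on this scale. Its diet ratio was 0.14 in control and -0.01 in knockout hearts, with -0.15 and 0.11 after subtraction of the local background and 0.23 and -0.07 in the authors' deposited table. The hearts were not level after that subtraction: knockout over control went from 0.16 to 0.28 under AL and from 0.00 to 0.55 under CR.

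Gsta3 and Gstm1 encode glutathione transferases of the alpha and mu class, which conjugate electrophiles and lipid peroxidation products to glutathione. Gsta3 read 7.18 (control AL), 7.74 (control CR), 7.53 (knockout AL) and 8.57 (knockout CR), the widest range of the 10 at 1.39. Each CR heart lay above both AL hearts, and the knockout CR heart was highest. CR over AL was 0.56 in control hearts and 1.04, or 2.05-fold, in knockout hearts, where it ranked 19 of 12142 genes. With the local background subtracted these were 0.33 and 0.79, and the authors' deposited table gave 0.77 and 1.30.

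Gstm1 read 9.23, 9.56, 9.49 and 9.96 in that order. The order of the hearts resembled that of Gsta3, although the control CR and knockout AL hearts were nearly level. CR over AL was 0.33 in control and 0.47 in knockout hearts, so the mu-class gene too had its higher value on the knockout array. These values lay between 0.26 and 0.43 and between 0.43 and 0.54 under the other settings.

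The knockout response less the control response was below 0 for 8 of 10, where 51.0% of 11698 genes were, with a median of -0.22 beside -0.00 for all genes. Nqo1 (-0.70) and Srxn1 (-0.60), 2 of 10, passed 1.5-fold downward, where 0.513% of genes did, and 0 of 10 passed it upward, where 0.376% did. Txnrd1 (-0.48), Gclm (-0.35), Hmox1 (-0.29) and Gsr (-0.15) followed, Nfe2l2 (-0.10) and Gclc (-0.02) were near 0, and the transferases Gsta3 (0.48) and Gstm1 (0.14) lay above it. With the local background subtracted 5 of 10 were below 0 and the median was -0.01, as Nfe2l2 (0.29), Gclc (0.29) and Gsr (0.26) changed sign. Hmox1 was then at -0.17. Gclm, Nqo1, Hmox1, Srxn1 and Txnrd1 kept a negative and Gsta3 and Gstm1 a positive difference under all 6 alternatives run. Cell type markers moved too: the difference was below 0 for 10 of 13 cardiomyocyte markers (median -0.22), 8 of 10 fibroblast markers (median -0.26), 9 of 10 endothelial markers (median -0.13) and 7 of 10 macrophage markers (median -0.18), and their part in the members' values was not tested.

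**Figure D4:**
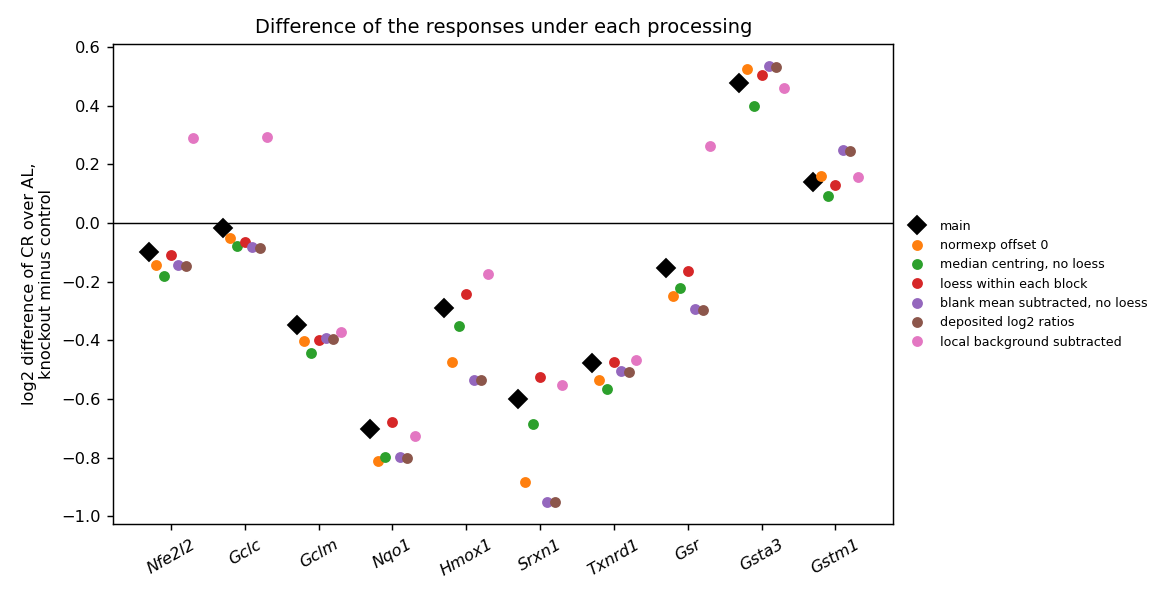
Log2 difference of the CR over AL values, knockout minus control, for each gene under the setting used here (diamonds, named main in the key) and 6 alternatives (circles). Points of Nqo1, Srxn1, Txnrd1, Gclm and Hmox1 stay below 0 and those of Gsta3 and Gstm1 above it, while 1 circle each of Nfe2l2, Gclc and Gsr, from local background subtraction, crosses 0.

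Compared between the genotypes, 9 of 10 genes had a higher signal in the knockout heart under AL, where 52.6% of 12783 genes did, and the median was 0.21 beside 0.01. In either direction 0 of 10 passed 1.5-fold, where 2.57% of genes did so upward and 1.78% downward. Hmox1 (0.45) and Nfe2l2 (0.44) had the highest values and Txnrd1 (-0.02) and Gclm (0.02) were level. Subtracting the local background left 7 of 10 higher, with Txnrd1 at -0.79, Gclm at -0.34, Nqo1 at -0.17, and Gsta3, at 0.35 otherwise, at 1.11. In the same comparison 10 of 13 cardiomyocyte markers (median 0.28), 8 of 10 fibroblast markers (median 0.45), 10 of 11 macrophage markers (median 0.29) and 4 of 10 endothelial markers (median -0.02) were higher, and their part was not tested.

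Under CR the genotype values spread in both directions. In this comparison 6 of 10 were higher in the knockout heart, where 51.0% of 11957 genes were, and the median was 0.07 beside 0.00. Gsta3 at 0.83, 1 of 10, passed 1.5-fold upward, where 1.43% of genes did, and 0 of 10 passed it downward, where 1.08% did. Nqo1 (-0.55), Txnrd1 (-0.50), Gclm (-0.32) and Srxn1 (-0.32) were the lower ones. These values share the control CR heart with the control response, in which Nqo1, Txnrd1 and Gclm were highest, and so are not a second observation of it. With the local background subtracted Txnrd1 was at -1.26, Nqo1 at -0.89, Gclm at -0.71, Gsta3 at 1.57, Nfe2l2 at 1.07, Gclc at 0.74 and Gsr at 0.55, and Hmox1 (-0.10) and Srxn1 (0.36) turned. Of the markers, 7 of 13 for cardiomyocytes (median 0.06), 8 of 10 for fibroblasts (median 0.14), 9 of 10 for macrophages (median 0.21) and 3 of 10 for endothelium (median -0.09) were higher, and their part was not tested.

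**Figure D5:**
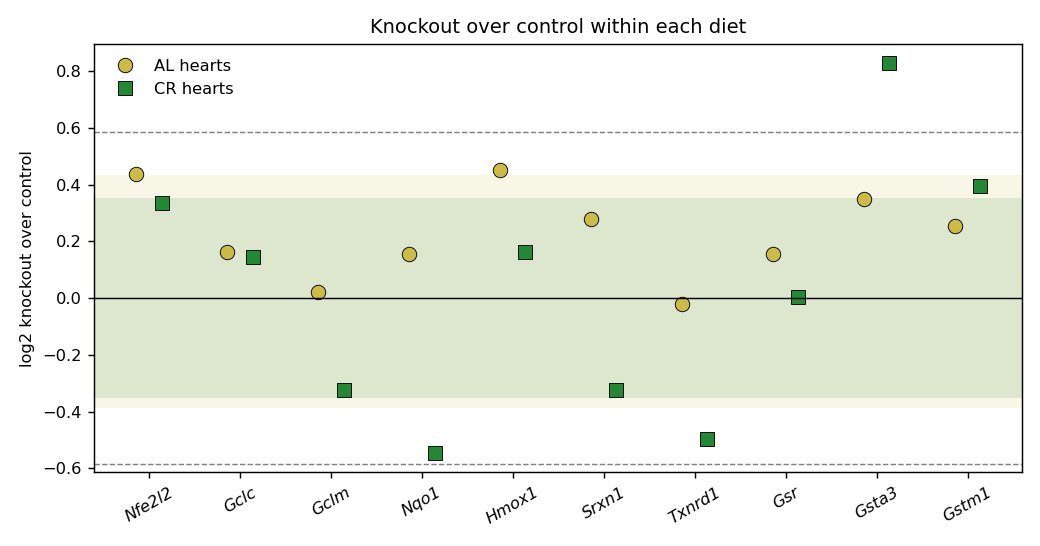
Log2 knockout over control of each gene in AL hearts (circles) and CR hearts (squares). Dashed lines mark 1.5-fold and shading the 5th to 95th percentile of all genes compared (-0.39 to 0.43 under AL and -0.35 to 0.35 under CR). Nqo1, Srxn1 and Gclm lie above 0 under AL and below it under CR, and Gsta3 alone passes the upper dashed line.

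Other genes of the pathway were less uniform. Of 129 genes in 7 lists, 109 could be compared in control hearts. There 65 were higher with CR (median 0.04), where 51.4% of all genes were. Sqstm1, Chac1 and Gsta2, 3 of 109, passed 1.5-fold upward, where 0.814% of all genes did. In knockout hearts 58 of 109 were higher (median 0.01), near the 50.1% of all genes. Here 0 passed 1.5-fold upward and 2, Ftl1 and Tfrc, downward, where 0.758% of all genes did so in each direction. In knockout over control, 10 of 110 passed 1.5-fold upward under AL and 4 of 107 under CR, and 0 downward under either. Of all genes 2.57% and 1.43% did so upward, and 1.78% and 1.08% downward. Those under AL were Sqstm1, Glo1, Gsto1, Gstp1, Txnip, Idh1, Aldh1a1, Alas1, Cpox and Mt2. In each of these the knockout AL heart lay above the control CR heart. The log2 signals were 10.10 and 9.16 for Mt2, 8.20 and 8.04 for Idh1, and 10.37 and 10.27 for Sqstm1. The shares of 51.4% and 50.1% also stand beside the counts of single lists below. The regulators of NRF2 were split, with 7 of 14 higher in control and 10 of 14 in knockout hearts. Sqstm1, the autophagy receptor p62 that binds KEAP1, was at 0.62 in control and 0.18 in knockout hearts, Cul3, the ubiquitin ligase scaffold that acts with KEAP1, at 0.38 and 0.48, and Mafk, a small MAF partner, at -0.05 and 0.18.

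Enzymes that supply NADPH were higher with CR in 8 of 11 in control hearts (median 0.24) and in 5 of 11 in knockout hearts (median -0.03). Their difference of responses was below 0 in 9 of 11 (median -0.17), where 51.0% of all genes were. Idh1, the cytosolic isocitrate dehydrogenase, was at 0.55 and -0.03, whereas Nnt, the mitochondrial transhydrogenase, was at 0.57 and 0.47 and Me3, a mitochondrial malic enzyme, at 0.37 and 0.57. Thioredoxin genes other than Txnrd1 were higher in 7 of 13 on both arrays (medians 0.03 and 0.01), with the peroxiredoxin Prdx1 at -0.14 and -0.52 and Prdx4 at 0.04 and 0.28. Txnip, which binds and inhibits thioredoxin, was at 0.38 and 0.17, and its knockout over control value was 1.93 (AL) and 1.72 (CR).

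The remaining glutathione transferases were split. They were higher with CR in 9 of 20 in control hearts (median -0.00) and in 7 of 19 in knockout hearts (median -0.09). Gsta2, the other alpha-class gene named by the rule, read 6.53, 7.16, 6.89 and 6.58 in that order. Its CR over AL of 0.63 and -0.31 thus ran the opposite way to Gsta3 in knockout hearts, and its difference of responses was -0.94. Alpha-class transcripts are alike in sequence, the probe sequences were not used here, and signal shared between such genes was not tested. The alpha-class Gsta4, at 0.37 and -0.17, also ran the opposite way to Gsta3 in knockout hearts. The mu-class Gstm5, chosen after its values were seen, was at 0.12 and 0.33. It was thus higher with CR on both arrays and more so in knockout hearts, as Gsta3 and Gstm1 were. The other mu-class genes measured did not share this: Gstm3 was at -0.13 and 0.01 and Gstm7 at -0.41 and -0.24. Gstm2 (-0.00 and -0.08) and Gstm4 (0.26 and 0.05) had signals below the median. Gstp1, a pi-class transferase, was at 0.03 and -0.25, and Gsto1, an omega-class transferase, at 0.35 and 0.02.

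Glutathione supply and use was split, with 9 of 16 higher in control (median 0.07) and 8 of 17 in knockout hearts (median -0.00). Glo1, a glyoxalase that detoxifies methylglyoxal, was at 0.16 and -0.00, the plasma-type peroxidase Gpx3 at -0.25 and 0.20, and the mitochondrial glutaredoxin Glrx5 at -0.33 and -0.42. Quinone, carbonyl and export genes were higher in 15 of 20 in control (median 0.05) and 13 of 20 in knockout hearts (median 0.05), with the retinal dehydrogenase Aldh1a1 at 0.16 and 0.42 and the epoxide hydrolases Ephx1 at 0.25 and 0.34 and Ephx2 at 0.47 and 0.25. Heme and iron genes were higher in 10 of 15 and 8 of 15 (medians 0.11 and 0.01), with metallothionein Mt2 at 0.57 and 0.05, Alas1, the first enzyme of heme synthesis, at 0.29 and 0.11, and Cpox, a later one, at 0.21 and -0.04.

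Among 5743 other genes with a full symbol (no predicted gene models) at or above the median signal, those whose centred log2 signals over the 4 hearts lay nearest to Gsta3, the gene with the widest range, were Herpud1, Sesn1 and Prodh, at Euclidean distances of 0.11, 0.16 and 0.17 log2 units. Herpud1, of endoplasmic reticulum protein degradation, read 9.18, 9.69, 9.62 and 10.55 in that order. Sesn1, a stress-responsive sestrin, read 8.70, 9.29, 9.12 and 10.29, and Prodh, proline dehydrogenase, 6.71, 7.23, 6.86 and 7.91. A likeness over 4 hearts is a description only.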

How the data were processed

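Total RNA of 4 hearts was amplified and labelled for 2 two-colour arrays, per the labels' protocols. The deposited scanner files hold each spot's median intensity and that of its surroundings, per the file headers, which also give line fits between scanner gains. No source used here names the scanner software. The deposited table gives log2 CR/AL, according to the labels. Its values equalled the log2 ratio of the green (Cy3) to the red (Cy5) channel after blank subtraction, less a constant (0.359 and 0.144), within 0.001 for 17405 of 17405 and 16555 of 16555 values, so its scale, centring and direction are known (column medians -2.885e-06 and 8.079e-05).

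Intensities were corrected by normexp (offset 50) without the local background and loess-normalized (limma 3.58.1, R 4.3.3). Control spots had weight 0, marked spots (1 and 3) were left out, and Aquantile preceded comparisons between arrays. A spot was detected above the mean of 2736 blank spots (5% trimmed at each end) by 2 SD, as 74.0% to 80.7% of 23473 probes were. Of these, 16631 carried 1 gene symbol and 6842 none. Symbols were updated through RefSeq's GRCm38.p6 table: 12622 were current, 3947 had a synonym and 62 did not match. The calculation was checked on simulated arrays.

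With 1 heart per condition, no p-value is given, and the number of arrays limits the precision. The genes and lists were chosen with earlier results of these data known. Beyond the 10 genes, those named are up to 3 per pathway list with the largest value in any comparison, within the brighter part (median signal or more), and the 3 most like the gene of widest range. Chac1, Ftl1 and Tfrc were named after their values were seen, as the others past 1.5-fold in their comparison. Gstm5 was also named after its values were seen, and Gsta4, Gstm2, Gstm3, Gstm4 and Gstm7 are given as class relatives. The alternatives were a normexp offset of 0, median centring, loess within blocks, local background subtraction, blank subtraction, the deposited ratios, median scaling, no detection filter, bright genes only, the mean of all probes, and a laxer and a stricter (2-fold) threshold.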

Additional observations from a re-analysis of the deposited data

Results flagged for a closer look

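Of the 10 genes, 5 had CR over AL values of opposite sign in the control and the knockout hearts, with 1 array each, and the difference was not tested. The knockout minus control differences were -0.70 for Nqo1, -0.60 for Srxn1, -0.48 for Txnrd1, -0.29 for Hmox1 and -0.15 for Gsr. For Hmox1, Txnrd1 and Gsr the knockout value itself lay within the noise of repeated spots, so its sign carries little weight. With the local background subtracted Hmox1 (0.23 in control and 0.05 in knockout hearts) and Txnrd1 (0.71 and 0.25) had the same sign on both arrays. Gsr was then at -0.15 and 0.11, while Nqo1 (0.65 and -0.07) and Srxn1 (0.16 and -0.39) kept their signs. Gclm was level between the genotypes under AL (0.02) and lower in the knockout heart under CR (-0.32). That contrast is the same -0.35 as its difference of responses and was likewise not tested. With the local background subtracted Gclm was lower in the knockout heart under both diets, at -0.34 (AL) and -0.71 (CR).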

How the results depend on the processing

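No paired analysis was possible because each group holds 1 array. Of the alternatives, 6 could alter the values in each comparison. Over 300 such values of the 10 genes, 193 moved by less than a tolerance set from the SDs of repeated control spots, and 107 by more. For values between arrays this tolerance combines the SDs within each array and does not measure the spread between arrays. Sign changes numbered 19, 13 of them with the local background subtracted and 4 in the genotype value of Gsr under CR, and 0 were of a value past 1.5-fold. The mean of all probes, no detection filter and bright genes only left them as they were, by construction. In control hearts the count past 1.5-fold (2) was 3 with an offset of 0, median centring, blank subtraction and the authors' deposited table, 1 with loess within blocks, 5 at the laxer fold and 0 at 2-fold. It was 2 with the local background subtracted, from Nqo1 and Txnrd1. More of all genes passed 1.5-fold upward in control hearts where the count was 3. The shares were 3.60% upward and 2.45% downward with an offset of 0, and 8.57% and 4.80% with blank subtraction. They were 1.65% and 0.198% with median centring, against 0.814% and 0.340% in the main setting. The deposited ratios were not counted in this way. Loess within blocks gave 0.837% and 0.371%. The median of the 10 genes (0.31) was 0.38 with an offset of 0 and 0.40 with median centring. In knockout hearts the count (1) was 2 with an offset of 0, with blank subtraction and in the authors' deposited table. Each time 1 was higher and 1 lower, and at the laxer fold the count was 3. All genes passed 1.5-fold at 3.15% upward and 3.49% downward with an offset of 0, and at 7.66% and 6.14% with blank subtraction. For the difference of responses the count (2) was 1 with loess within blocks and with the local background subtracted. At the laxer fold it was 5 and at 2-fold 0. Past 1.5-fold downward were 0.479% of all genes with loess within blocks and 2.19% with the local background subtracted. The median difference of responses (-0.22) was -0.33 with an offset of 0, -0.34 with blank subtraction and -0.35 in the authors' deposited table. With the local background subtracted it was -0.0082. Between genotypes under AL the count (0) was 1 with an offset of 0 and 2 with blank subtraction. With the local background subtracted it was 4, and at the laxer fold 3. More of all genes passed 1.5-fold there too, 6.78% upward and 5.38% downward with an offset of 0. The shares were 10.6% and 8.97% with blank subtraction and 9.67% and 9.54% with the local background subtracted, against 2.57% and 1.78% otherwise. Under CR the count (1) was 2 with an offset of 0, median centring and blank subtraction, and 3 with median scaling. It was 6 with the local background subtracted, 7 at the laxer fold and 0 at 2-fold. Local background subtraction took the median of the 10 genes from 0.07 to 0.35. Of all genes under CR, 1.43% passed 1.5-fold upward and 1.08% downward in the main setting. These shares were 5.90% and 4.95% with an offset of 0, and 9.23% and 8.40% with blank subtraction. They were 11.1% and 10.4% with the local background subtracted. Median centring gave 1.20% and 1.35%, and median scaling 0.845% and 2.34%. Apart from changes that follow from another fold threshold, the cause was not tested. With 1 heart per condition, the number of arrays limits what these values can show.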
